A study of Mus musculus with 5 samples.

Results

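The Rab GTPase genes were taken as every gene whose symbol is Rab, a number and at most 1 further letter, with at least 1 probe set annotated to that gene alone. This rule found 59 genes of the 18193 genes measured, and it used the symbols only, not the signals. Rab proteins are small GTPases that switch between a GTP-bound form on membranes, where they recruit effectors such as tethers and motors, and a GDP-bound form that is held in the cytosol. Exchange factors load them with GTP, GTPase-activating proteins (GAPs) switch them off, and each compartment of the secretory and endocytic routes carries its own members. Multiciliated cells build many motile cilia, and the growth of a ciliary membrane depends on vesicles that Rab proteins deliver to the basal body.

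The samples were GFP+ cells sorted by flow cytometry from lungs of FOXJ1-GFP embryos late in gestation (E17.5), from matings with the outbred ICR strain. The transgene marks cells in which the FOXJ1 promoter is active, and the labels call the sorted cells differentiating ciliated cells of the embryonic lung. All 5 samples belonged to this 1 group, as biological replicates 1 to 5 on 1 array each, so each gene was described by its level and its spread, with no comparison between conditions. Whether the replicates came from separate litters is not stated, and the p-values then cover only the spread between these samples, which may be technical. The values are log2 signals of an Affymetrix array, and each gene was represented by its probe set with the highest mean. Probe sets differ in brightness for the same amount of transcript, so genes were not ranked by level and a call is a statement about 1 probe set.

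Ciliated cell markers were present, with 12 of 13 above background, including Foxj1 at 12.82 ± 0.08 (SD, n = 5 arrays), and only Spag6 at 3.67 ± 0.13 was not. Markers of other lung cells were also measured, with 10 of 10 alveolar type 2, 9 of 9 alveolar type 1, 12 of 12 endothelial, 10 of 13 mesenchymal, 11 of 17 leukocyte, 7 of 11 neuroendocrine, 5 of 9 club and goblet and 3 of 7 basal cell genes above background. Of all genes measured, 59.3% were above background. The mean signal over all genes of a list ranged over the 5 arrays from 11.80 to 11.87 for ciliated, 11.15 to 12.51 for alveolar type 2, 11.28 to 11.68 for alveolar type 1, 10.61 to 11.56 for endothelial, 9.80 to 10.09 for mesenchymal, 8.15 to 9.27 for leukocyte, 8.55 to 8.84 for neuroendocrine, 9.88 to 10.54 for club and goblet and 7.86 to 8.21 for basal cell markers. In such sorted bulk samples, fewer cells of a type and less RNA per cell cannot be told apart, and the part of other cell types in the Rab signals was not tested.

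Most Rab genes were detected. A gene was called above background when the limma test placed its mean over a background level of 7.80, the 95th percentile of 150 receptor and tissue-restricted genes chosen as not belonging to this tissue, at an adjusted p under 0.05. This held for 43 of the 59 Rab genes (72.9%), beside 59.3% of all genes. The study set a lower cut-off of 5 on average expression, together with a fold-change, in a comparison with earlier lung progenitors. Taken here as log2, and on the mean of these 5 arrays alone, a cut-off of 5 was passed by 56 Rab genes, beside 81.3% of all genes. The median level was 10.31 over the Rab genes and 9.07 over all genes. A Rab gene had 2.24 probe sets on average and a gene of the whole array 1.92, and the choice of the brightest one was made among these. The 43 genes above background had all 5 arrays over the level, 10 of the other genes had none over it, and 6 had 1 to 4. Rab9b, Rab33a and Rab39 were the members that did not pass the cut-off of 5.

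**Figure D1:**
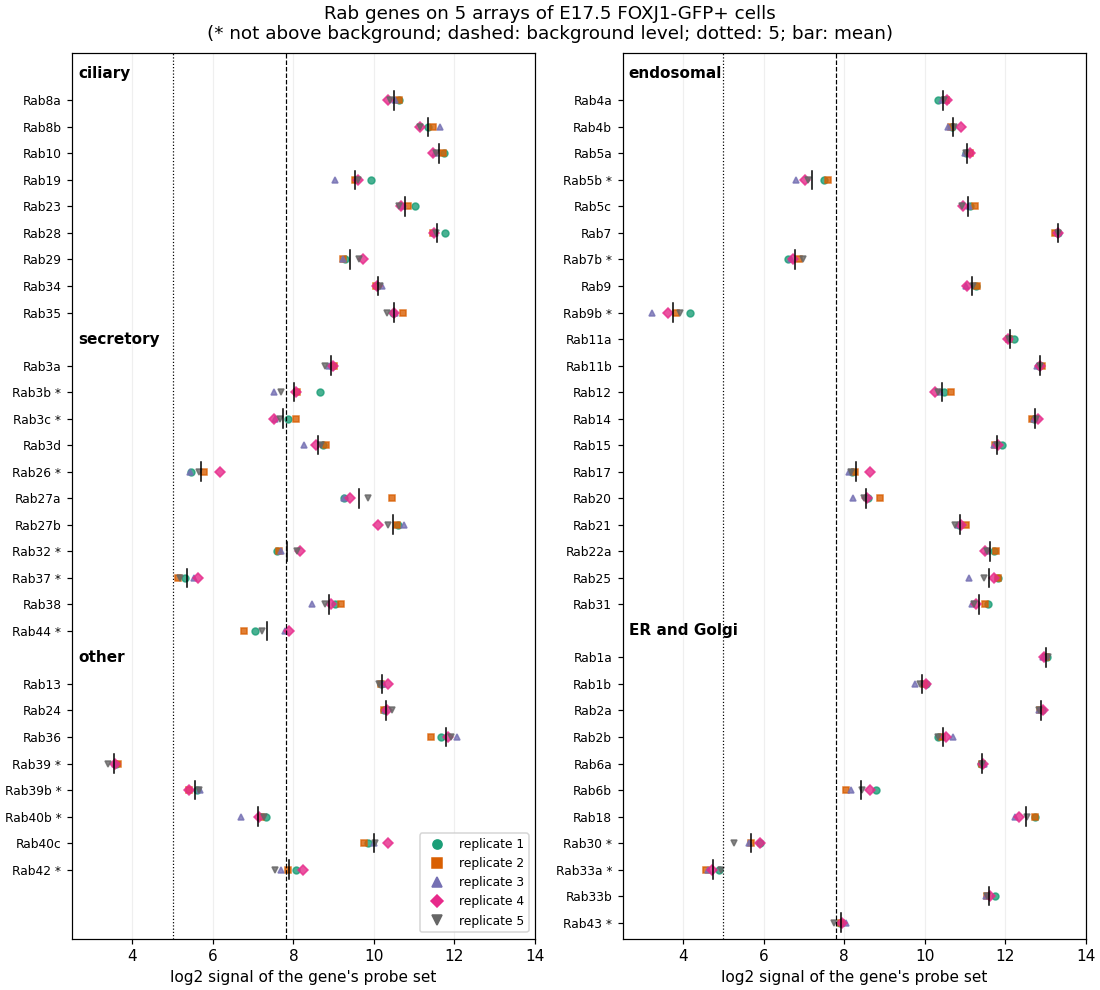
Log2 signal of the 59 Rab genes on each of the 5 arrays, by class, with 1 coloured mark per replicate, a vertical bar for the mean and an asterisk after the names of genes that were not above background. The dashed line is the background level of 7.80 and the dotted line the cut-off of 5, and all 9 ciliary members lie to the right of the background level.

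The classes were assigned by hand from general knowledge. Several Rab genes act in more than 1 class, so counts by class depend on these assignments. By class, 9 of 9 ciliary, 17 of 20 endosomal, 8 of 11 ER and Golgi, 5 of 11 secretory and 4 of 8 other Rab genes were above background. The share over all genes was 59.3%. The median level was 10.51 for the ciliary, 11.07 for the endosomal, 10.47 for the ER and Golgi, 8.01 for the secretory and 8.94 for the other genes. The count for the secretory class depended on the genes that set the background. It was 9 with chemosensory receptor genes alone, which put the level at 5.45 and called 77.3% of all genes, and 1 with tissue-restricted genes alone, which put it at 9.39 and called 43.4%. At the 99th percentile of the background genes, a level of 10.57 at which 27.0% of all genes were called, 21 Rab genes were called, 3 of them ciliary. That level lies between Ttr (10.61) and Mbp (10.53), background genes that were themselves called above 7.80.

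The bases before the start site of the members were read from RefSeq (GRCm38.p6), which gave a window for 48 of the 59 genes, and counts were averaged where a gene had several start sites. Windows of 250 bases upstream held a median of 19.5 CpG dinucleotides in the 37 members above background and 8 in the 11 that were not, beside 16 in all genes above background (n = 8772) and 5 in all genes that were not (n = 5596). At least 15 CpG were found in 62.2% of the members above background and 18.2% of those that were not, against 57.3% and 21.2% of all genes. The Rab genes therefore differed by call in the same direction as genes at large. The windows below are shown because they span that range among members described here, with CpG in capitals, written 5′ to 3′ on the strand of the gene and ending at the base before its start. Rab35 (chr5:115631737-115631986, plus strand, 39 CpG) and Rab28 (chr5:41708180-41708429, minus strand, 12 CpG) are ciliary members. Rab17 (chr1:90967668-90967917, minus strand, 3 CpG) is an endosomal member above background, and Rab3b (chr4:108878820-108879069, plus strand, 6 CpG) a secretory member that was not.
Rab35: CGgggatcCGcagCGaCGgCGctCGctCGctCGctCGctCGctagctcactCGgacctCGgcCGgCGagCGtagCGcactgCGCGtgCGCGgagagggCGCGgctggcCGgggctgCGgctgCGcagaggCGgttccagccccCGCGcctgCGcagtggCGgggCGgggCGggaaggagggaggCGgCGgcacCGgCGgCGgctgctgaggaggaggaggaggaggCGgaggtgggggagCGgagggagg
Rab28: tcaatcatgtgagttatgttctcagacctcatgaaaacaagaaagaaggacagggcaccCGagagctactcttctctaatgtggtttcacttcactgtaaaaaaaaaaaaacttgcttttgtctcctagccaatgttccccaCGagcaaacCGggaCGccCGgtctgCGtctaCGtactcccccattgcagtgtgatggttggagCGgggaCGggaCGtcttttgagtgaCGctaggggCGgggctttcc
Rab17: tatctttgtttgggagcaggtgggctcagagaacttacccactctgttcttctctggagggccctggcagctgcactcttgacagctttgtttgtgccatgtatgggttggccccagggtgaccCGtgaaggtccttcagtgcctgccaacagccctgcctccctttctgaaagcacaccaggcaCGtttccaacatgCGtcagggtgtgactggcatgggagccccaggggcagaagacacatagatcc
Rab3b: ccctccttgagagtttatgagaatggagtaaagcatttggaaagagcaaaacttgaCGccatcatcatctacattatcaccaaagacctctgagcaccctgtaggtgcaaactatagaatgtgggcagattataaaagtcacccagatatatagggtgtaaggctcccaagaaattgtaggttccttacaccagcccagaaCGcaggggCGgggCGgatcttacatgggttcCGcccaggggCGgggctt

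Motifs of factors active in ciliated cells were searched on both strands of these windows, and a match is only a description of the letters. The X-box, to which RFX factors bind, was found in 0 of 48 members and in 2.35% of all genes with a window. The shorter RFX half-site GTTGCC, which can lie within an X-box, was found in 3 members, Rab15, Rab1b and Rab40b, and in 11.8% of all genes. The forkhead motif TGTTTAC was found in Rab39b and Rab43, beside 3.54% of all genes. The E2F motif GGCGGGAA was found in Rab35 and Rab39, beside 2.13% of all genes. Of the 9 ciliary members, Rab35 alone held any of the motifs searched in these 250 bases.

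**Figure D2:**
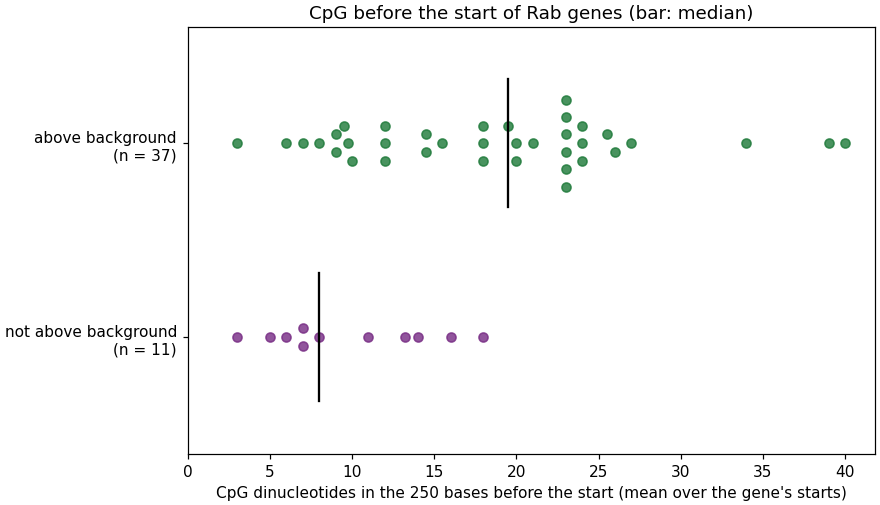
CpG dinucleotides in the 250 bases before the start site, on the horizontal axis, for the 48 Rab genes with a window, with 1 point per gene and a vertical bar for the median, in 37 genes above background (top) and 11 that were not (bottom). The members that were not above background lie between 3 and 18 CpG, and those above it between 3 and 40.

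All ciliary Rab genes were above background on every array. Rab8a, which acts with its exchange factor Rabin8 in the extension of the ciliary membrane, had 10.62, 10.61, 10.52, 10.35 and 10.41 in replicates 1 to 5. Its paralogue Rab8b had 11.34, 11.48, 11.64, 11.15 and 11.15. Their SDs of 0.12 and 0.21 were small beside the distances to the background level, 2.70 and 3.55 on the log2 scale. Rab8a also had probe sets at 6.80 ± 0.29 and 2.82 ± 0.13, and with all of them averaged its difference from the level, computed in the same way, was -0.41 on the log2 scale. The second probe set of Rab8b, at 5.19 ± 0.43, was not above background.

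Rab10, an exocytic Rab also found at the base of cilia, had 11.75, 11.73, 11.53, 11.48 and 11.54. All 3 of its probe sets were above background. Rab34, required in cultured cells for cilia that start inside the cytoplasm on a ciliary vesicle, had 10.07, 10.06, 10.20, 10.07 and 10.15. Rab35, which controls endocytic recycling and the composition of the ciliary membrane, had 10.48, 10.73, 10.51, 10.51 and 10.32. Rab34 was the ciliary member with the smallest spread between arrays (SD 0.06), and its second probe set, at 8.82 ± 0.21, was also above background.

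Rab23, known in mice as a negative regulator of Hedgehog signalling, had 11.01, 10.85, 10.73, 10.68 and 10.61. Rab28, which travels with intraflagellar transport in Caenorhabditis elegans and is mutated in a human cone-rod dystrophy, had 11.76, 11.47, 11.53, 11.50 and 11.54. Replicate 1 was the highest array for both genes, as it was for 31.3% of all genes above background. For Rab28 it stood apart from the other 4. The same array was highest in the second probe sets, at 11.25 for Rab23 and 10.92 for Rab28.

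Rab19, linked to the clearing of cortical actin where a cilium emerges, had 9.93, 9.54, 9.03, 9.61 and 9.60. Rab29, a Rab that recruits the kinase LRRK2, had 9.28, 9.23, 9.24, 9.72 and 9.63. These were the ciliary members with the largest spread (SD 0.32 and 0.24), with replicate 3 low for Rab19 and replicates 4 and 5 high for Rab29. Both lost the call when tissue-restricted genes alone set the background, and the other 7 ciliary members kept it.

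Secretory Rab genes, which serve regulated exocytosis and lysosome-related organelles, fell on both sides of the background level. Rab27a and Rab27b dock secretory granules at the plasma membrane. Rab27a had 9.26, 10.45, 9.25, 9.40 and 9.85, the largest SD of any Rab gene above background (0.51), and 98.9% of all genes above background had a smaller one. Rab27b had 10.60, 10.58, 10.74, 10.11 and 10.35. Replicate 2 was thus high for Rab27a and not for Rab27b. The other 3 probe sets of Rab27a, with means from 6.76 to 7.17, were not above background. Nor were the other 3 of Rab27b, with means from 5.06 to 7.66. Those 3 of Rab27a had their lowest value in replicate 3. In replicate 2 they had 7.49, 7.31 and 7.01, beside 7.27, 7.32 and 6.81 in replicate 1.

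The Rab3 genes act in the priming and fusion of secretory vesicles. Rab3a had 8.97, 9.01, 8.89, 8.99 and 8.77, and Rab3d, known from exocrine granules, had 8.75, 8.80, 8.26, 8.55 and 8.68. Rab3b had 8.65, 8.10, 7.51, 8.07 and 7.70. Rab3c had 7.88, 8.07, 7.55, 7.53 and 7.68. Rab3a and Rab3d lay above the background level on all arrays, whereas the arrays of Rab3b and Rab3c fell on both sides of it. Rab3d had 2 further probe sets that were not above background, at 7.86 ± 0.12 and 3.76 ± 0.21, and lost its call when all were averaged. For Rab3b the mean was 0.20 above the level on the log2 scale (limma adjusted p = 0.272). Both Rab3b and Rab3c were called, with the same probe sets and values, in the alternative without suffixed probe sets. That alternative dropped probe sets with names ending in s_at, x_at or a_at, and thereby put the background level at 7.37.

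Rab38 and Rab32 serve melanosomes and other lysosome-related organelles, and in the lung Rab38 is known from the lamellar bodies of alveolar type 2 cells. Rab38 had 9.04, 9.18, 8.47, 8.94 and 8.79, all above the background level. Its second probe set, at 6.93 ± 0.22, was not above background. Rab32 had 7.58, 7.64, 7.70, 8.15 and 8.09, with 3 arrays below the level and 2 above it (limma adjusted p = 0.907). Rab38 was highest in replicate 2 and lowest in replicate 3. The alveolar type 2 markers above background, as mean deviations on the log2 scale, were highest in replicate 5 (0.69) and lowest in replicate 1 (-0.67).

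The remaining secretory genes were not above background. Rab44, a large Rab of immune cells, had 7.04, 6.77, 7.78, 7.89 and 7.21, so that replicate 4 alone exceeded the level. Rab26, which acts on acinar granules, had 5.44, 5.78, 5.43, 6.19 and 5.66. Rab37, described on mast cell granules, had 5.30, 5.13, 5.54, 5.62 and 5.19. Rab26 and Rab37 were below the background level on every array but above the cut-off of 5.

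Endosomal Rab genes were mostly above background. Rab11a, which marks recycling endosomes and feeds vesicles to the cilium base, had 12.21, 12.09, 12.09, 12.08 and 12.10. Rab11b, its paralogue, had 12.84, 12.92, 12.79, 12.87 and 12.87. Rab25, the epithelial member of the Rab11 group, had 11.83, 11.82, 11.11, 11.72 and 11.48. Rab11a and Rab11b varied with SDs of 0.06 and 0.05, whereas Rab25 varied with an SD of 0.30 and was low in replicate 3. All 5 probe sets of Rab11a and Rab11b were above background.

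Rab17, an epithelial Rab of apical recycling and transcytosis, had 8.19, 8.27, 8.13, 8.64 and 8.17. Its mean of 8.28 ± 0.21 was only 0.48 above the background level (limma adjusted p = 0.00118), and its second probe set at 5.77 ± 0.28 was not called. Rab20, found on endosomes and phagosomes, had 8.59, 8.89, 8.22, 8.58 and 8.49. Both lost the call when tissue-restricted genes alone set the background.

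The other endosomal members above background had means from 10.43 to 13.30. They were the early endosome genes Rab5a, Rab5c, Rab21, Rab22a and Rab31, the recycling genes Rab4a, Rab4b, Rab14 and Rab15, the late endosome genes Rab7 and Rab9, and Rab12. The second probe set of Rab12, at 7.49 ± 0.55, was not above background. Rab12 lost its call when probe sets with a suffix were left out. Rab7, which drives the maturation and fusion of late endosomes, averaged 13.30 ± 0.03, the smallest SD of any Rab gene above background. Rab31 averaged 11.35 ± 0.17, the largest SD of these 12 genes. Of the early endosome paralogues, Rab5b alone was not above background, with 7.50, 7.59, 6.80, 7.02 and 7.10, while Rab5a averaged 11.06 ± 0.05 and Rab5c 11.07 ± 0.13. Rab7b averaged 6.77 ± 0.15 and Rab9b 3.75 ± 0.35, and neither was above background.

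Of the Rab genes of the ER and Golgi, 8 of 11 were above background, beside 59.3% of all genes. Rab1a and Rab1b, which act between the ER and the Golgi, averaged 13.00 ± 0.05 and 9.94 ± 0.12. Rab2a and Rab2b, of the Golgi and the intermediate compartment, averaged 12.88 ± 0.04 and 10.47 ± 0.16. Rab6a, which directs traffic back through the Golgi, averaged 11.43 ± 0.03. For the 5 genes the whole range over the arrays was at most 0.37 on the log2 scale. Rab18, of the ER and lipid droplets, averaged 12.52 ± 0.23, and Rab33b, which binds the autophagy factor Atg16l1, 11.60 ± 0.09. The second probe set of Rab18, at 7.87 ± 0.61, was not above background. Rab18 lost its call when probe sets with a suffix were left out.

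Rab6b, best known from neurons, had 8.79, 8.04, 8.16, 8.65 and 8.43. It passed the test (limma adjusted p = 0.00153), but its 3 other probe sets, with means from 5.68 to 6.13, did not, and with all probe sets averaged its difference from the level was -0.59 on the log2 scale. Rab43 had 7.90, 7.91, 8.05, 7.94 and 7.75, which straddled the background level without passing the test (limma adjusted p = 0.173). Rab30 averaged 5.68 ± 0.26 and Rab33a 4.75 ± 0.17.

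Among the members of other or less settled function, Rab36 had 11.66, 11.42, 12.06, 11.85 and 11.91, and all 3 of its probe sets were above background. Rab40c, which joins a ubiquitin ligase complex, had 9.84, 9.74, 10.0002, 10.36 and 10.04. Replicate 2 was the lowest array for both. The second probe set of Rab40c, at 5.60 ± 0.33, was not above background. Rab13, a Rab of tight junction traffic, averaged 10.21 ± 0.08, and Rab24, linked to autophagy, 10.31 ± 0.08. Rab42 had 8.06, 7.87, 7.69, 8.24 and 7.54 (limma adjusted p = 0.578), and Rab40b had 7.31, 7.20, 6.71, 7.13 and 7.27. Rab42 lay on both sides of the background level and Rab40b wholly below it. Rab39 and Rab39b averaged 3.55 ± 0.09 and 5.55 ± 0.13.

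The spread of the Rab genes between arrays was like that of genes at large. The median SD was 0.127 over the 43 Rab genes above background and 0.150 over all genes above background, and an SD under 0.2 was found in 67.4% of those Rab genes and 68.7% of those genes. The 10 with the largest SD were Rab27a, Rab19, Rab6b, Rab25, Rab38, Rab36, Rab27b, Rab20, Rab40c and Rab29. As mean deviations from each gene's own mean, the arrays spanned 0.14 on the log2 scale for the Rab genes above background, 0.14 for the ciliary and 0.48 for the secretory ones, against 0.09 for ciliated, 0.38 for neuroendocrine, 0.40 for alveolar type 1, 0.42 for club and goblet, 0.56 for basal, 0.60 for mesenchymal, 0.94 for endothelial, 1.20 for leukocyte and 1.36 for alveolar type 2 markers. Without Rab27a, a value added after seeing the data, the other 4 secretory genes spanned 0.31. The secretory deviation was 0.02, 0.30, -0.19, -0.11 and -0.02 in replicates 1 to 5. That of the 7 neuroendocrine markers above background, genes of a cell type with secretory granules, was 0.11, 0.15, -0.14, -0.23 and 0.11. Both lists were highest in replicate 2, but the secretory list was lowest in replicate 3 and the neuroendocrine list in replicate 4. All Rab genes above background were also highest in replicate 2 (0.06) and lowest in replicate 3 (-0.08), as were the endosomal ones (0.09 and -0.10). The ciliary and the ER and Golgi Rab genes were highest in replicate 1. Alveolar type 1 markers were also highest in replicate 2 (0.16), and the remaining marker lists were not. The part of neuroendocrine cells in the secretory Rab signals was not tested. Syp, Syt1, Scg3 and Insm1 of the neuroendocrine list were not above background. Alveolar type 2, alveolar type 1, leukocyte, endothelial and mesenchymal markers were lowest in replicate 1. The ciliated markers (0.05) and the ciliary Rab genes (0.10) were highest there. The part of cell composition in these deviations was not tested.

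**Figure D3:**
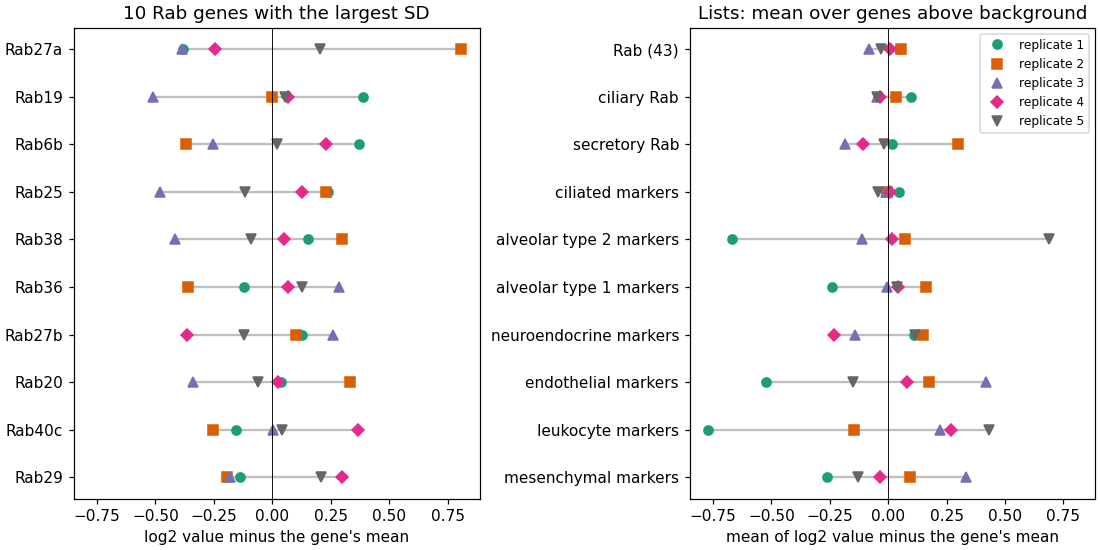
Deviation of each array from the gene's mean, in log2 units, for the 10 Rab genes above background with the largest SD (left) and as a mean over the genes above background of each list (right), with 1 mark per replicate. Rab27a is high in replicate 2 and Rab19, Rab25, Rab38 and Rab20 are low in replicate 3. The secretory Rab list, a mean over 5 genes, spans 0.48, but 0.31 without Rab27a (not drawn). The neuroendocrine (7 genes) and alveolar type 1 (9 genes) markers span 0.38 and 0.40. The mesenchymal (0.60), endothelial (0.94), leukocyte (1.20) and alveolar type 2 (1.36) markers span more.

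Replicate 3 was the lowest array for 17 of the 43 Rab genes above background (39.5%), beside 33.7% of all genes above background. The control probe sets for Gapdh differed between their 3′ and 5′ ends by 1.02, 1.03, 1.43, 1.25 and 1.14 on the log2 scale in replicates 1 to 5, highest in replicate 3. Those for Actb differed by 0.61, 0.51, 0.68, 0.72 and 0.67. The part of RNA quality in the Rab signals was not tested.

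The 59 genes had 132 probe sets, of which 76 were above background. Of the 38 genes with more than 1, all probe sets were above background in 13, some in 17 and none in 8. For 20 genes with at least 2 probe sets above background, the first 2 had the same lowest array in 6, and the SD was larger in the second in 16. Replicate 3 was the lowest array for 4 of the first and 10 of the second probe sets. The probe sets of Rab2a, Rab4a, Rab14, Rab22a and Rab24 carry the suffix for targets shared between transcripts, so their levels are less certain.

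**Figure D4:**
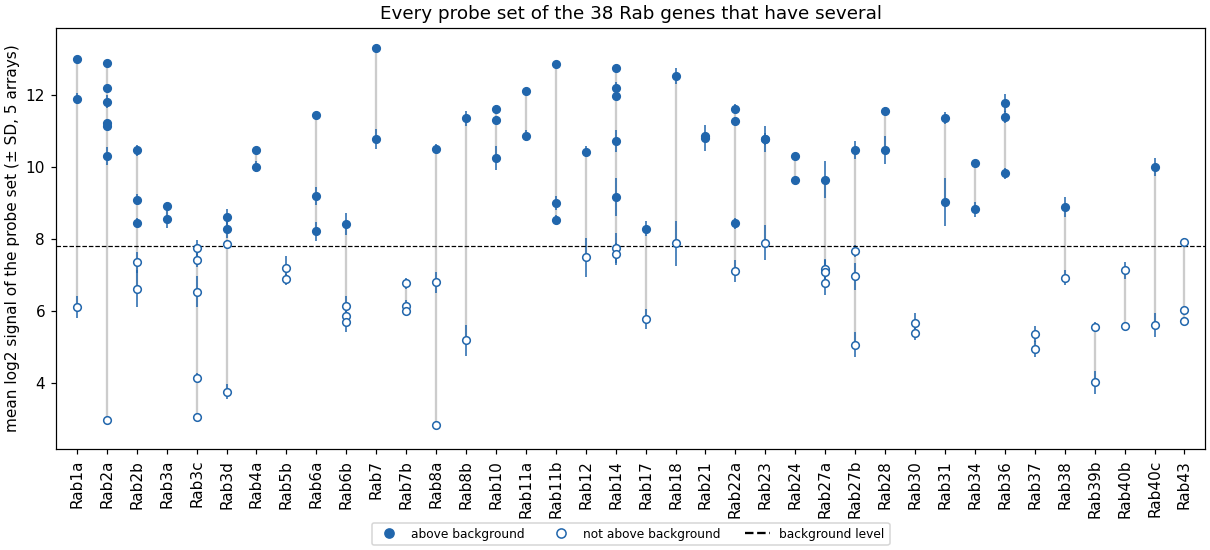
Mean log2 signal with SD over the 5 arrays for every probe set of the 38 Rab genes that have several, filled where the probe set was above background. The dashed line is the background level of 7.80, and 17 of the genes have probe sets on both sides of the call, among them Rab8a, Rab27a and Rab6b.

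The genes that modify and recycle Rab proteins were all above background (5 of 5), beside 59.3% of all genes. Chm and Chml, the Rab escort proteins that present new Rabs for prenylation, averaged 9.71 ± 0.13 and 10.12 ± 0.17. Rabggta and Rabggtb, the subunits of the geranylgeranyl transferase, averaged 10.90 ± 0.11 and 10.91 ± 0.10. Gdi2, which extracts GDP-bound Rabs from membranes, averaged 13.72 ± 0.09.

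Of 35 exchange factor genes, 28 (80.0%) were above background, beside 59.3% of all genes. Rab3ip, which encodes Rabin8, the exchange factor of Rab8, had 12.37, 12.19, 12.17, 12.23 and 12.16. Rpgr, a ciliary protein reported to act on Rab8 and mutated in human retinitis pigmentosa, had 12.54, 12.35, 12.83, 12.68 and 12.69. Both were far above the background level on all arrays, as Rab8a and Rab8b were. The paralogue Rab3il1, at 6.91 ± 0.20, was not above background. Rabgef1, of Rab5, averaged 11.28 ± 0.15, and Mon1b, of the Rab7 exchange complex, 11.89 ± 0.10. Dennd1b, of Rab35, averaged 10.51 ± 0.11, Dennd4c, of Rab10, 11.20 ± 0.10, Madd, of Rab3 and Rab27, 8.85 ± 0.15, and Rabif 10.47 ± 0.11. Besides Rab3il1, the genes not above background were Dennd1a, Dennd4b, Mon1a, Rin1, Rinl and Hps1, with means from 7.36 to 8.09.

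Of 38 GAP genes, 35 (92.1%) were above background, beside 59.3% of all genes, and Tbc1d2, Tbc1d4 and Tbc1d10c were not. Tbc1d30, a GAP of Rab8 in cilium formation, averaged 9.77 ± 0.21, Tbc1d7 9.43 ± 0.27 and Evi5l 8.72 ± 0.18. Rab3gap1 and Rab3gap2, a complex that also acts on Rab18, averaged 9.16 ± 0.12 and 10.76 ± 0.16.

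Of 49 effector genes, 42 (85.7%) were above background, beside 59.3% of all genes. Among effectors at the cilium, Cep164, a distal appendage protein, averaged 12.80 ± 0.13, Inpp5e, a ciliary phosphoinositide phosphatase, 12.36 ± 0.09, Rilpl1 12.23 ± 0.22, Rilpl2 11.59 ± 0.11 and the kinase gene Lrrk2 8.47 ± 0.18. Rab11fip1, an adaptor of Rab11 and Rab25, had 11.81, 11.95, 10.66, 10.64 and 11.03. Replicates 1 and 2 were high, and the SD of 0.63 was larger than that of any Rab gene above background. The other adaptors, Rab11fip2 to Rab11fip5, averaged from 9.14 to 10.66 with SDs of at most 0.19. Myo5b, a motor for Rab11 vesicles, averaged 11.66 ± 0.12.

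Named effectors of Rab3 and Rab27 were found on both sides of the call. Exph5 and Unc13d were named after their values were seen, so no share is given for this subset. Rph3al, which encodes Noc2, averaged 12.82 ± 0.08, Exph5 10.61 ± 0.18, Unc13d 9.42 ± 0.13, Sytl1 8.98 ± 0.22 and Sytl4 8.47 ± 0.15, all above background. Sytl2 at 6.88 ± 0.21, Mlph, the melanophilin gene, at 6.79 ± 0.17, Myrip at 6.86 ± 0.37, Rph3a at 4.39 ± 0.25, Rims1 at 5.62 ± 0.29 and Rims2 at 7.24 ± 0.38 were not. Ehd3, at 7.29 ± 0.23, was the remaining effector that was not above background. All 7 Rab-like and ARF-like ciliary genes were above background, beside 59.3% of all genes. They were the intraflagellar transport genes Ift27 at 12.90 ± 0.07 and Ift22 at 13.21 ± 0.16, Rabl2 at 12.25 ± 0.08, Rabl3 at 10.86 ± 0.09, Rabl6 at 10.15 ± 0.14, Arl3 at 13.30 ± 0.07 and Arl2 at 9.96 ± 0.16.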

How the data were processed

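RNA of 5 samples of sorted cells was amplified and labelled with biotin by the authors and hybridised to Affymetrix mouse arrays, which they analysed with Bioconductor in R. The authors deposited normalized log2 signals, with the normalization not given in the sources used here. That the signals are log2 was inferred from their range of 2.37 to 15.11 and near-equal quantiles. Their cut-off of 5 is stated in arbitrary units, for average expression in a comparison with progenitors that are not among these samples. Here it was applied to the mean of the 5 samples only. Arrays correlated across probe sets with Pearson's r from 0.987 to 0.994, and probe sets are not independent replicates. The number of arrays limits the precision.

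Probe sets were named through the platform annotation. Besides 64 control probe sets, 34945 had 1 gene, 932 several and 9160 none here. All 59 Rab identifiers were found in the RefSeq gene table (GRCm38.p6), and 0 symbols had changed. Per gene, the probe set with the highest mean was used. In R 4.3.3, limma 3.58.1 fitted an intercept to each probe set (lmFit, eBayes). The moderated test was one-sided against the background level or 5, with Benjamini-Hochberg adjustment over 45037 probe sets and a threshold of 0.05. The background genes were 75 chemosensory receptor genes (median level 3.59) and 75 tissue-restricted genes (median 5.24), of which 7 were themselves called, Lhb, Ttr, Mbp, Pomc, Myl7, Fabp2 and Prm1. The fit was tested on simulated data. CpG and motifs were counted in Python 3.11.15 with numpy 2.4.6 and pandas 2.3.3.

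The members, gene lists and tests were chosen with earlier results of these data known. Named are all Rab genes and, of their regulators and effectors, a list chosen by role and up to 8 genes per list that were not above background. Values on every array are given for ciliary and secretory members, Rab11a, Rab11b, Rab25, Rab17, up to 10 members not above background and the 10 above it with the largest SD, and for Rab3ip, Rpgr and Rab11fip1, chosen after their values were seen, as were Exph5 and Unc13d. Alternatives were averaged probe sets, probe sets with a suffix (s_at, x_at or a_at) left out, quantile normalization and centring on the median. Further ones were a call on all 5 arrays, other background levels, a cut-off of 6, and each replicate left out in turn.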

Additional observations from a re-analysis of the deposited data

Results flagged for a closer look

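Each of the 59 Rab genes was checked for an array that stood apart from the other 4 by Dixon's criterion, which chance meets in about 1 of 20 groups, and 4 genes met it. Rab7 was lowest in replicate 2, at 13.25, with the other arrays between 13.31 and 13.32. Rab11a was highest in replicate 1, at 12.21, with the others between 12.08 and 12.10. Rab17 was highest in replicate 4, at 8.64, with the others between 8.13 and 8.27. Rab28 was highest in replicate 1, at 11.76, with the others between 11.47 and 11.54. All 4 genes were above background on every array.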

How the results depend on the processing

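The count of 43 Rab genes above background was 43 again with each replicate left out, after quantile normalization, after centring on the median and with a call on all 5 arrays. Quantile normalization and centring could change little, because the deposited signals already had near-equal quantiles, and the background level stayed at 7.80 in both. Leaving out replicates moved only the exchange factor count, between 28 and 29. The count above the cut-off of 5 was 56 and that above 6 was 52. In all, 26 members had the same call in every alternative, and for 17 a setting other than the receptor genes alone or the 99th percentile changed it. No paired analysis was possible because all samples belong to 1 group.

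The background level mattered most. At the 99th percentile (10.57), where 27.0% of all genes were called, 21 Rab genes were, of which 3 were ciliary, 0 secretory, 12 endosomal, 5 ER and Golgi and 1 other, with 3 prenylation, 10 exchange factor, 14 GAP and 16 effector genes. For the secretory class the limma count was also 0 at an unadjusted p under 0.05, since all means lay below that level. With the level set by tissue-restricted genes alone (43.4% of all genes called), 1 secretory Rab, 17 exchange factor and 22 GAP genes were called, and by receptor genes alone (77.3%) 9 secretory Rab genes. Without probe sets carrying a suffix, which also put the background level at 7.37, 8 secretory Rab genes and 3 of the 3 prenylation genes then measured were called. The added secretory genes, Rab3b, Rab3c and Rab32, had unchanged values there. Rab12 and Rab18 lost their call in that setting.

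The following are differences of level minus background in log2 units, for genes whose sign turned. At the 99th percentile they were -0.63 for Rab1b, -0.10 for Rab2b, -1.64 for Rab3a, -1.96 for Rab3d, -0.10 for Rab4a, -2.15 for Rab6b, -0.066 for Rab8a, -0.14 for Rab12, -0.36 for Rab13, -2.29 for Rab17, -1.03 for Rab19, -2.02 for Rab20, -0.26 for Rab24, -0.93 for Rab27a, -0.092 for Rab27b, -1.15 for Rab29, -0.46 for Rab34, -0.060 for Rab35, -1.68 for Rab38 and -0.57 for Rab40c. With tissue-restricted genes alone they were -0.46 for Rab3a, -0.78 for Rab3d, -0.98 for Rab6b, -1.11 for Rab17, -0.84 for Rab20 and -0.51 for Rab38. With receptor genes alone they were 2.29 for Rab3c, 1.75 for Rab5b, 1.32 for Rab7b, 0.22 for Rab30, 1.67 for Rab40b and 1.89 for Rab44. With probe sets averaged they were -0.59 for Rab6b, -0.41 for Rab8a and -0.091 for Rab17, and without suffixed probe sets 0.37 for Rab3c. Apart from the levels themselves, the cause was not tested.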
